A study of Mus musculus with 57 samples.

Results

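The 69 loci described here are unannotated transcribed loci of the mouse embryo whose RNA was seen at the early 2-cell stage and had dropped by the late 2-cell stage. They carry identifiers that begin with XLOC, the form in which Cufflinks names loci it assembles, and they were selected on measured values. A locus was taken when its mean was under 0.5 FPKM in MII oocytes, under 0.5 FPKM in zygotes and at least 2 FPKM in early 2-cell embryos (E2-cell). Its mean in late 2-cell embryos (L2-cell) also had to be less than 0.5 of the E2-cell mean. FPKM, fragments scaled by transcript length and by mapped fragments, is a level per length of transcript. The rule found 69 of the 4673 XLOC loci, in a table of 59119 rows. A further 159 XLOC loci met the first 3 thresholds and failed the last, and these loci kept at L2-cell serve as the comparison set. The table gives neither position nor sequence for XLOC loci, so what the 69 overlap in the genome was not analysed here.

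The mouse embryo starts transcription of its own genome late in the 1-cell stage and broadly in the 2-cell stage, while RNA stored in the oocyte is degraded. Early in the 2-cell stage the endogenous retrovirus MERVL is transcribed, and its long terminal repeat, MT2_Mm, acts as a promoter for viral RNA and for chimeric transcripts of neighbouring genes and noncoding loci. Much of this early program is switched off again before the 4-cell stage. The series asked whether such repeats activate long noncoding RNAs (lncRNAs) and what those do in genome activation.

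Total RNA was sequenced from pools of oocytes or embryos. The stage series held wild type C57BL/6 MII oocytes, zygotes, both kinds of 2-cell embryo, and 4-cell, 8-cell, Morula and Blastocyst embryos, with 2 columns per stage. A time series held wild type BDF1 embryos at 14, 17 and 20 hours after fertilization, with 2 columns each. The knockdown experiment held BDF1 embryos of the genotype LncR-3363 KD, named KD-1cell (4 columns) and KD-2cell (1 column), and wild type Ctrl embryos (4 columns), and the labels do not give the stage at which any of them was collected. The MT2Mm experiment held wild type and MT2Mm KO embryos of BDF1 mice aged 6 to 8 weeks at Late1c and Early2c, in 4 groups of 3 columns. Per the labels' protocols, each injected MII oocyte received between 5 and 10 pL, holding either an antisense oligonucleotide (ASO) at 20 uM or MT2-Mm guide RNA at 150 ng/uL with Cas9 mRNA at 100 ng/uL. The sources used here do not give whether controls were injected or which share of repeat copies was edited. The repeat is not a row of the table, and no row could be tied to LncR-3363 by name, so neither target could be checked. The knockdown columns carry the short name lnc2, and they were taken for LncR-3363 because no other knockdown is in the series.

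The table holds no read counts, and sequencing depth is therefore unknown. From 10704 to 12892 rows reached 1 FPKM per column, and the sum of all FPKM was highest in the second L2-cell column, at 720832. Of 44 genes of the 2-cell embryo found in the table, 43 had a mean of at least 1 FPKM at E2-cell and 12 in MII oocytes. Summed FPKM of 15 cumulus and granulosa cell markers was between 0.28 and 10.73 in every column. The column names of all E2-cell samples carry one tag and those of all L2-cell samples another, which leaves stage and tag confounded: their parts cannot be told apart. Nothing says which samples came from separate litters or days, so p-values measure the spread between these samples, which may be technical.

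Across the stage series the loci showed a single pulse, described here without a test because the rule used it. The median of the 69 E2-cell means was 2.85 FPKM, from 2.00 to 60.8, and 54 loci were under 4 FPKM, so most were weakly expressed even at their highest stage. All 69 had their highest stage mean at E2-cell. In MII oocytes 57 loci and in zygotes 56 were listed at 0 in both columns. At L2-cell the level was a median 28.4% of that at E2-cell, from a listed 0 to 49.3%, and 26 loci kept a mean of at least 1 FPKM. At the 4-cell and 8-cell stages, which the rule did not use, the medians were 8.29% and 2.31%, and in 58 loci no step from E2-cell to 8-cell was upward. At Blastocyst 43 loci were listed at 0 in both columns.

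**Figure D1:**
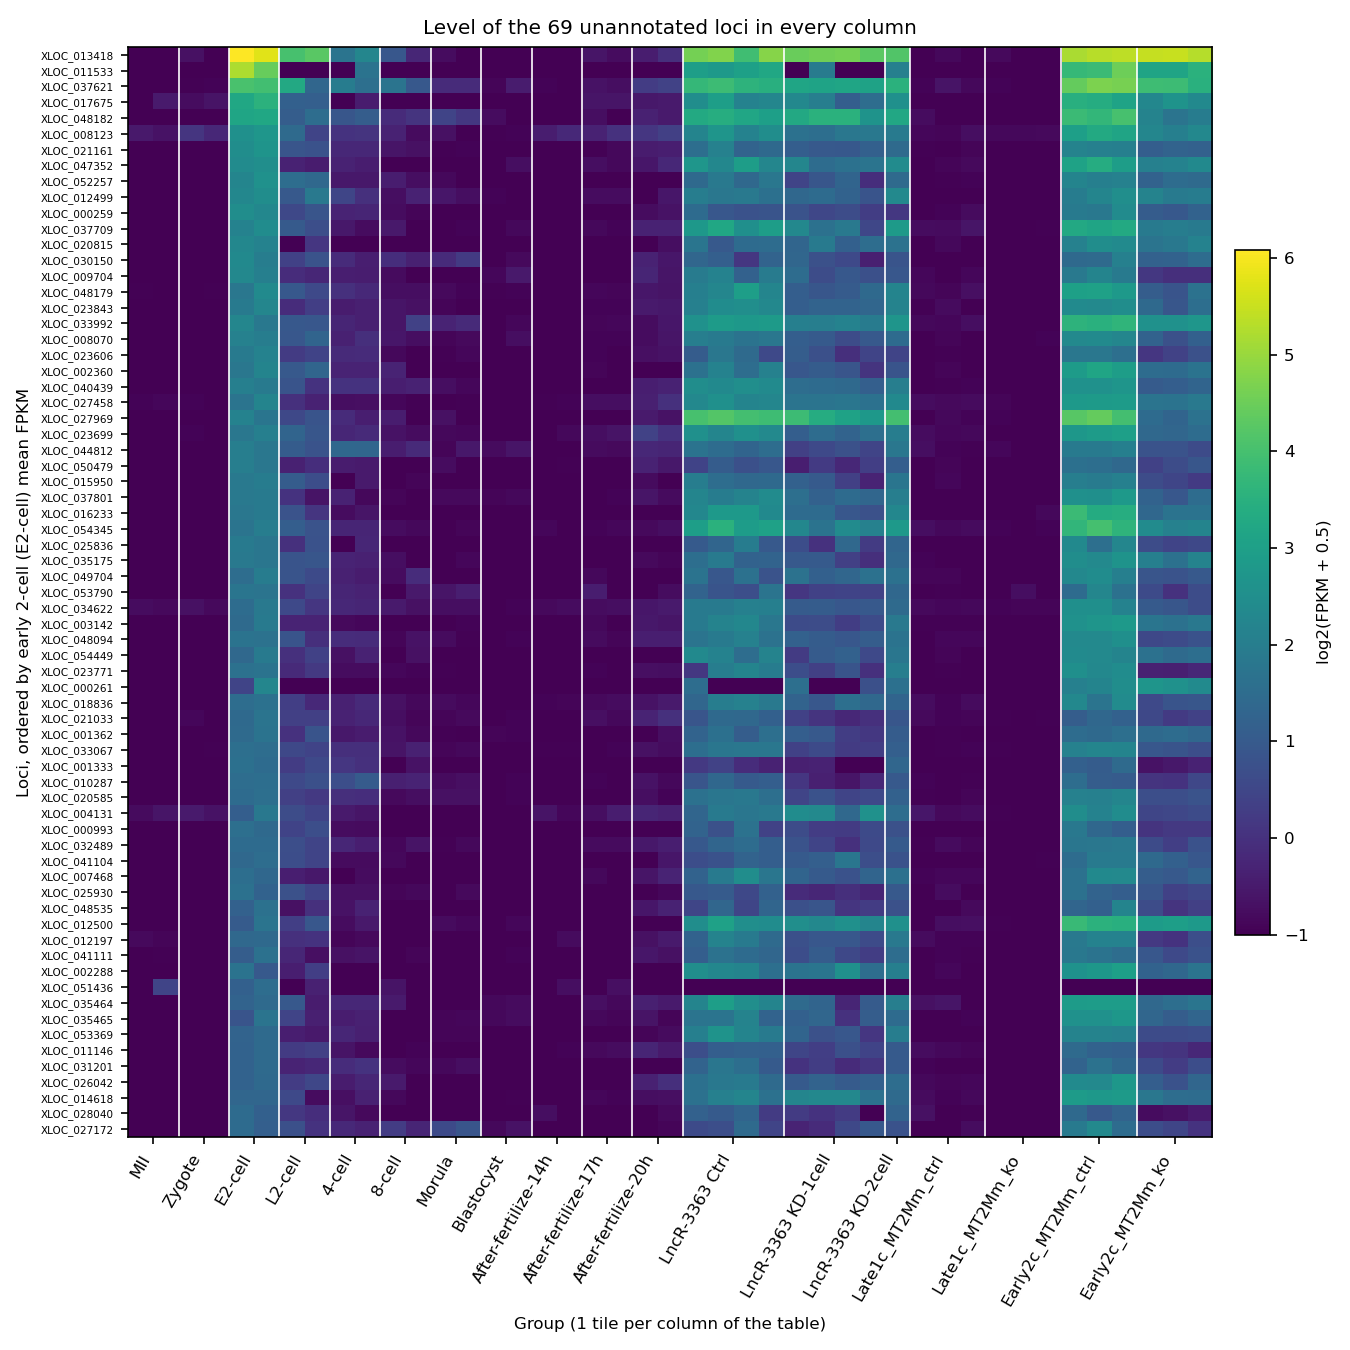
Level of each of the 69 loci (rows, ordered by E2-cell mean) in each of the 43 columns of the table (tiles, grouped by the 18 groups), as log2(FPKM + 0.5). Signal is highest in the E2-cell, Ctrl, knockdown and Early2c columns. At L2-cell it is weaker, with 26 loci at a mean of at least 1 FPKM. MII, zygote, hours and Late1c columns are near the floor of the scale.

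A few loci stood well above the rest at E2-cell. XLOC_013418 had 67.5 and 54.2 FPKM in the E2-cell columns, against 15.9 and 18.8 at L2-cell, 2.78 and 4.29 at 4-cell, and 1.40 and 0.352 at 8-cell. XLOC_011533 had 36.9 and 21.1 FPKM at E2-cell, was listed at 0 in both L2-cell columns, and was listed at 0 in one 4-cell column and at 2.77 in the other. XLOC_037621 had 16.2 and 14.8 FPKM at E2-cell and 9.28 and 2.02 at L2-cell. These 3 and XLOC_017675 (8.88 and 11.2 FPKM) were the loci with an E2-cell mean of at least 10 FPKM. The E2-cell replicates differed by a median 13.3% (SD as a percentage of the mean, n = 2), and L2-cell replicates lay below both E2-cell replicates in all 69 loci, a direction the rule favours.

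The decline was not uniform. In 6 loci the 4-cell mean was above the L2-cell mean, and in 3 both 4-cell columns were above both L2-cell columns. XLOC_044812 had 1.57 and 1.25 FPKM at L2-cell and 2.06 ± 0.053 (SD, n = 2) at 4-cell, then 0.234 and 0.393 at 8-cell. XLOC_010287 had 0.982 and 1.16 FPKM at L2-cell and 1.12 and 1.54 at 4-cell, so its columns overlapped between these stages. XLOC_010287 is named after its values were seen. Both loci kept more than 50% of their E2-cell level at 4-cell (62.3% and 55.1%). At Morula 3 loci had a mean of at least 0.5 FPKM: XLOC_027172 with 1.02 and 1.31, XLOC_048182 with 0.874 and 0.600, and XLOC_030150 with 0.416 and 0.656. The highest Blastocyst means were those of XLOC_037621 (0.039 and 0.226), XLOC_009704 (0.043 and 0.203) and XLOC_044812 (0.079 and 0.159).

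The thresholds cut through a continuum. Just inside the E2-cell limit were XLOC_027172 at 2.003 and XLOC_028040 at 2.014 FPKM, just outside XLOC_044555 at 1.996 and XLOC_019412 at 1.992, and 288 XLOC loci missed the rule by this limit alone. Just inside the L2-cell limit were XLOC_012499 and XLOC_023699, both at 49.3% of E2-cell, and just outside XLOC_045252 at 50.5% and XLOC_017219 at 52.1%. The MII limit lay between XLOC_051436 at 0.431 and XLOC_013426 at 0.530 FPKM (next inside XLOC_008123 at 0.168, next outside XLOC_001123 at 0.578). The zygote limit lay between XLOC_008123 at 0.472 and XLOC_052439 at 0.610 FPKM (next inside XLOC_004131 at 0.176, next outside XLOC_017360 at 0.691). When the columns were scaled by the median of ratios, 40 loci met the rule, 39 of them among the 69, since factors of 1.07 and 1.06 at E2-cell and 0.828 and 0.789 at L2-cell raised the L2-cell share to a median 37.3%.

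In the hours after fertilization the loci stayed far under their 2-cell level, with a rise at 20 hours. The highest mean of any of the 69 was 0.309 FPKM at 14 hours, 0.398 at 17 hours and 0.767 at 20 hours, so none reached the limit of 1 FPKM for the main test (limma on log2(FPKM + 0.5)) and 0 were tested there. The median of the 69 was a listed 0 at 14 hours, 0.013 FPKM at 17 hours and 0.120 FPKM at 20 hours. At 14 hours 52 loci were listed at 0 in both columns, and at 20 hours 14 were.

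XLOC_037621 was listed at 0.027 and 0 FPKM at 14 hours, 0.130 and 0.098 at 17 hours, and 0.707 and 0.827 at 20 hours, so the 3 times did not overlap. XLOC_013418, the locus with the highest E2-cell level, was listed at 0 in both 14-hour columns, at 0.155 and 0.084 FPKM at 17 hours and at 0.234 and 0.468 at 20 hours. XLOC_011533 was listed at 0 at all 3 times, as were 9 other loci. In the stage series XLOC_013418 was listed at 0.127 FPKM in the first zygote column. Depth is unknown and a listed 0 need not mean absence, so the time of a first value above 0 does not order the loci.

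In 46 of the 69 loci both 20-hour columns were above both 14-hour columns, against 15.9% of all rows of the table. The same held for 45 loci from 17 to 20 hours (12.0% of all rows) and for 23 from 14 to 17 hours (15.8%). Without the limit on low values, limma called 35 of the 69 higher at 20 than at 14 hours at an adjusted p under 0.05 (7.39% of all rows so tested), 18 higher at 20 than at 17 hours (2.49%) and 1 higher at 17 than at 14 hours (4.55%). These calls rest on means of at most 0.767 FPKM. Summed cumulus and granulosa markers were also higher at the later times, at 6.48 and 6.59 FPKM at 14 hours, 7.40 and 7.74 at 17 hours, and 10.6 and 10.7 at 20 hours, with 1, 2 and 5 of 15 markers at a mean of at least 1 FPKM and Amh listed at 0 at 20 hours. Their part in the result was not tested. The names of the 17-hour columns hold the word cat where those of 14 and 20 hours hold merge. What these words mark is not stated, and time cannot be told apart from it at 17 hours. Of the 159 loci kept at L2-cell, 127 had both 20-hour columns above both 14-hour columns.

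**Figure D2:**
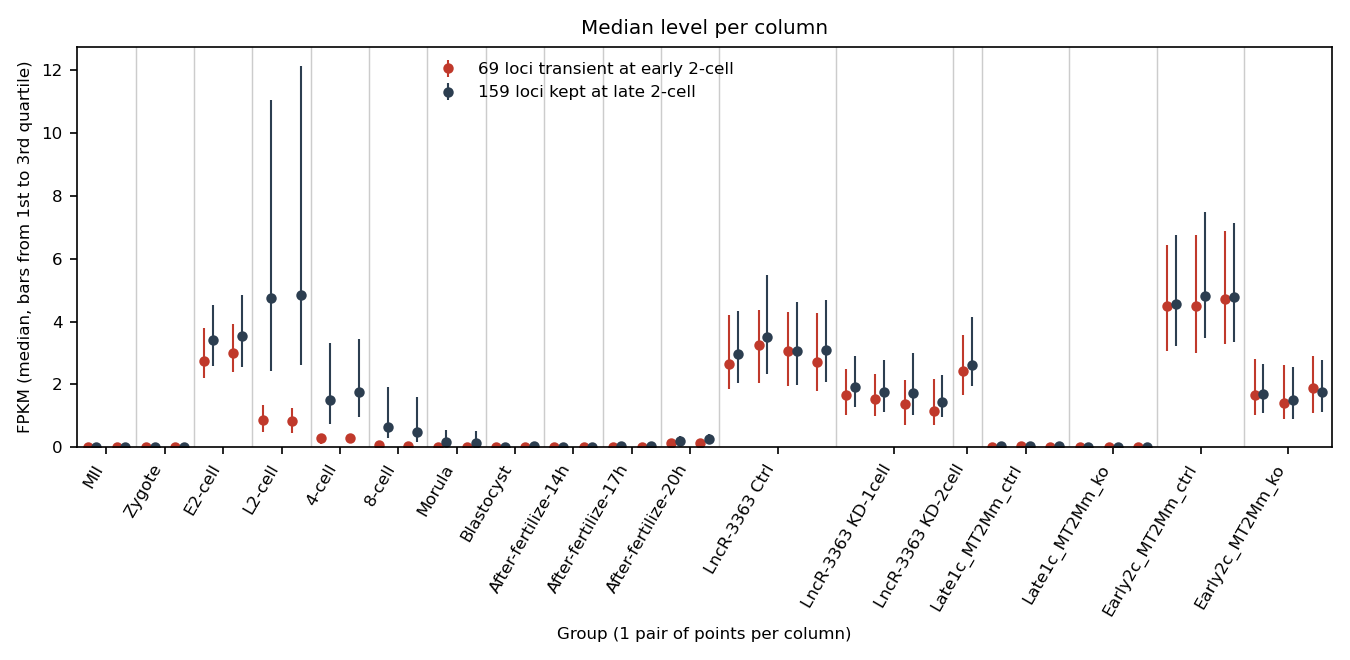
Median level in FPKM, with bars over the middle quartiles, of the 69 loci (red) and of the 159 loci kept at L2-cell (dark) in every column of the table, grouped on the horizontal axis. Both sets are near 0 through 20 hours and Late1c, and they part at L2-cell, where the rule separates them, with column medians of 0.860 and 0.843 against 4.76 and 4.85 FPKM.

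The MT2Mm experiment repeats the step into the 2-cell stage in samples the rule did not use, and the loci were again near 0 before it and above 1 FPKM after it in control embryos. From Late1c to Early2c all 68 loci tested were called higher in control embryos (33.5% of all rows tested were) and 68 were called higher in knockout embryos (33.9%). None of the 68 had a mean above 0.109 FPKM at Late1c, so all of them passed the filter through the Early2c columns, and a rise was the direction they could show. XLOC_051436 was not tested: it was listed at 0 in every column of this experiment and of the knockdown, and its E2-cell values were 1.75 and 2.40 FPKM. In Early2c controls 68 loci had at least 1 FPKM in each of the 3 columns, with a median of 4.36 FPKM.

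XLOC_013418 was listed at 0, 0.061 and 0 FPKM in the Late1c controls and reached 36.1, 39.8 and 40.9 FPKM in the Early2c controls, a log2 change of 6.24 ± 0.08 (SE, n = 3, adjusted p = 7.3e-14). XLOC_037621 went from 0.030, 0.146 and 0.054 FPKM to 21.0, 25.3 and 24.1 FPKM, a change of 5.38 ± 0.12 (adjusted p = 2.4e-12). In both loci every Early2c column lay above every Late1c column. These changes are on the log2(FPKM + 0.5) scale, which understates changes from levels near 0.

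Levels differed in size between the BDF1 experiments and the C57BL/6 stage series, with strain and experiment confounded. The Early2c control mean was a median 151% of the E2-cell mean, with quartiles of 95.6% and 188%, and the Ctrl mean a median 86.6%. XLOC_027969 had 3.91 and 2.85 FPKM at E2-cell but 18.6, 20.6 and 15.2 FPKM in the Early2c controls and 15.9, 17.8, 15.1 and 14.3 FPKM in Ctrl embryos. The order of the loci was closer between the Early2c controls and Ctrl (Pearson r = 0.92 of log2 levels over the 69 loci, Spearman rho = 0.90) than between either and E2-cell (r = 0.64 and 0.59). The rule chose the loci on their E2-cell level, and 54 of the 69 were under 4 FPKM there. Such a narrow range can lower a correlation with E2-cell, so no conclusion is drawn from the difference in r. The first pair also shares the BDF1 strain, and these parts cannot be told apart. No p is given since loci are not replicates.

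Nearly all of the loci were lower in MT2Mm KO embryos at Early2c. Of the 69, 63 were called lower in knockout than in control embryos and 1 higher. Among all rows tested, limma called 15.6% lower and 33.4% higher. In 62 loci all 3 knockout columns were below all 3 control columns (19.1% of all rows tested). The knockout level was a median 34.8% of the control level, from 6.32% to 126%, and 53 of the 68 loci with a value fell below 50%. The median log2 change was -1.27 over the 69, against 0.11 over all rows tested. Because each sample is a pool, fewer embryos at the stage and less RNA per embryo cannot be told apart. The filter was passed by 68 loci, 8 of them through the control columns alone, and without those 8 the count was 55 lower and 1 higher of 60.

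XLOC_023771 had 5.27, 4.45 and 4.96 FPKM in control and 0.285, 0.277 and 0.366 in knockout embryos, a log2 change of -2.73 ± 0.10 (SE, n = 3, adjusted p = 2.1e-08). XLOC_027969 had 18.6, 20.6 and 15.2 FPKM in control and 2.29, 1.91 and 2.71 in knockout embryos, a change of -2.73 ± 0.12 (adjusted p = 5.7e-08). These were the largest falls on the log2(FPKM + 0.5) scale, and neither pair of groups overlapped. As a share of control, XLOC_023771 kept 6.32% and XLOC_027969 12.7%, while the weaker loci XLOC_028040 and XLOC_001333 kept 7.86% and 11.0%. No knockout column of XLOC_023771, XLOC_028040 or XLOC_001333 reached 1 FPKM. They are among the 8 loci that passed the filter through the control columns alone, so a fall was the direction they could show.

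XLOC_009704 had 3.11, 4.13 and 3.20 FPKM in control and 0.614, 0.475 and 0.474 in knockout embryos, a change of -1.96 ± 0.12 (adjusted p = 2.55e-07). XLOC_016233 had 13.7, 9.71 and 10.1 FPKM in control and 2.07, 2.75 and 2.74 in knockout embryos, a change of -1.94 ± 0.13 (adjusted p = 6.3e-07). XLOC_048182, among the 5 highest at E2-cell, had 13.7, 12.5 and 15.7 FPKM in control and 3.97, 2.83 and 3.45 in knockout embryos, a change of -1.89 ± 0.12 (adjusted p = 4.4e-07). All 3 fell without overlap of the columns. No knockout column of XLOC_009704 reached 1 FPKM. It passed the filter through the control columns alone, so a fall was the direction it could show.

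**Figure D3:**
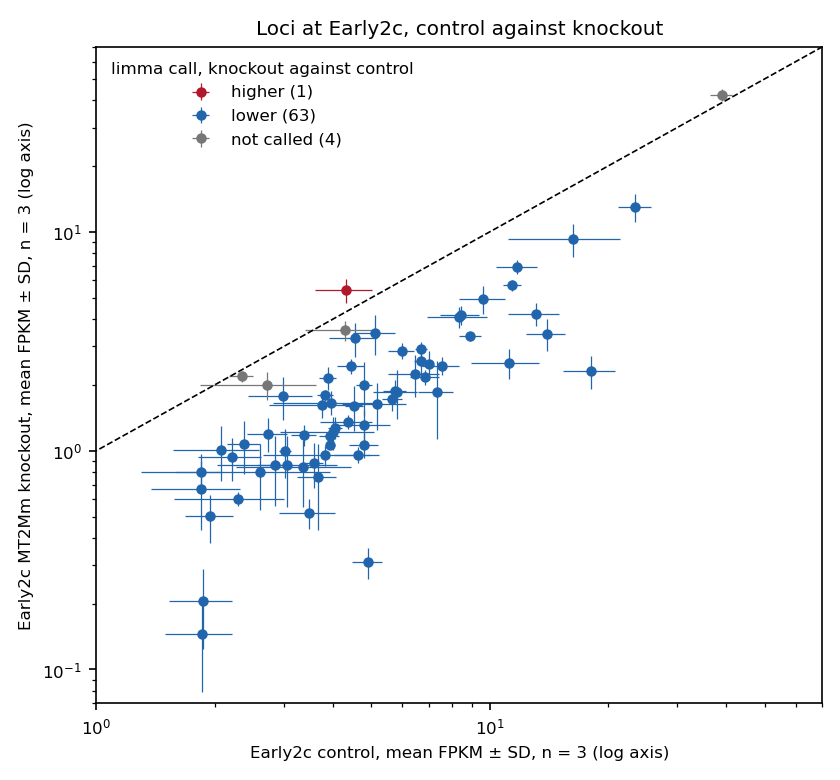
Mean level in Early2c control (horizontal) and Early2c MT2Mm knockout embryos (vertical) on log axes in FPKM, with SD bars (n = 3), for the 68 loci above 0, coloured by limma's call. The dashed line marks equal levels: 63 loci called lower lie below it, and XLOC_013418, the highest locus, lies just above it.

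Other loci of the 10 highest at E2-cell kept a larger share of control than XLOC_048182, which kept 24.5%. Loci high in the Early2c controls did not all do so: XLOC_027969 kept 12.7% and XLOC_016233 22.5%. XLOC_011533 went from 13.0, 13.7 and 22.3 FPKM in control to 8.31, 8.36 and 11.1 FPKM in knockout embryos (-0.76 ± 0.17, adjusted p = 0.0037), and XLOC_037621 from a mean of 23.5 ± 2.3 to 13.0 ± 1.9 FPKM (SD, n = 3; -0.83, adjusted p = 0.00012). XLOC_017675, XLOC_008123, XLOC_021161, XLOC_047352 and XLOC_052257, also among the 10 highest at E2-cell, fell by between 0.73 and 0.94 on the log2 scale. Over the 68 loci with a value, the control level and the share left in the knockout had a Spearman rho of 0.14, and the L2-cell share and the share left had a rho of -0.03. Both are weak and are given as a description.

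The 5 tested loci that were not called lower at Early2c were a mixed group, and 3 of them are named because of their values. XLOC_013418 had 36.1, 39.8 and 40.9 FPKM in control and 43.6, 44.3 and 39.2 in knockout embryos (0.12 ± 0.08, adjusted p = 0.25). XLOC_000261 had 3.75, 4.05 and 5.10 FPKM in control and 6.04, 5.48 and 4.70 in knockout embryos. It was the 1 locus called higher (0.30 ± 0.11, adjusted p = 0.047), its columns overlapped, and the call was lost with scaling (0.17, adjusted p = 0.25) and with 8 other alternatives. XLOC_001362 (2.34 ± 0.16 and 2.19 ± 0.13 FPKM in control and knockout), XLOC_030150 (2.72 ± 0.89 and 2.00 ± 0.30) and XLOC_012499 (4.28 ± 0.89 and 3.56 ± 0.38; SD, n = 3) were not called. With scaling the last 2 passed as lower, at changes of -0.46 and -0.36, and so they did without control replicate 1.

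At Late1c the loci were near 0 in both genotypes. Limma called 0 of them, with 3 at an unadjusted p under 0.05, where 0.0683% of all rows tested were called lower. The summed level of the 69 loci was 1.98, 2.08 and 1.98 FPKM in the control columns and 0.362, 0.195 and 0.262 FPKM in the knockout columns, so the groups did not overlap. Summed group means went from 2.01 to 0.273 FPKM at Late1c and from 419 to 193 FPKM at Early2c. In 20 loci all knockout columns were below all control columns (9.11% of all rows tested). In 50 loci the knockout columns were all listed at 0, against 11 in the controls. The highest mean was 0.109 FPKM, in XLOC_004131 (0.173, 0.071 and 0.083 FPKM in control and 0.016, 0 and 0 in knockout embryos). At these levels a difference was not detectable locus by locus, and depth is unknown.

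At Late1c the levels leave little room for an effect on the log2(FPKM + 0.5) scale, so an interaction test of the 2 stages largely restates the Early2c change. The difference between the 2 effects was tested as an interaction. It was called lower for 61 of the 69 (11.6% of all rows tested) and higher for 0. Scaling by the median of ratios gave 63 lower, while it turned all rows from 3382 higher and 1531 lower to 2275 and 2555. With a pseudocount of 0.1 FPKM, which gives the low Late1c values more weight, 46 were called lower.

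Other gene lists at Early2c are read against the same shares of all rows tested, 33.4% higher and 15.6% lower. Of 43 tested genes of the 2-cell embryo 14 were called lower and 5 higher, with a median change of -0.09. Zscan4c, of a zinc finger family whose near-identical copies can share reads, fell from 67.9 ± 0.81 to 46.1 ± 0.58 FPKM (SD, n = 3), and Zscan4f from 88.5 ± 3.7 to 70.5 ± 1.1. Of 13 tested genes listed as activated at the late 2-cell stage and after, 8 were called higher and 0 lower. Ncl, the nucleolar protein nucleolin, was at 35.0 ± 0.93 FPKM in control and 61.8 ± 1.1 in knockout embryos. Cdh1, E-cadherin, was at 11.4 ± 0.39 and 18.6 ± 1.1. Both were higher in the Late1c controls, at 120 ± 15 and 34.9 ± 1.2 FPKM. From Late1c to Early2c, 7 of the 13 were called higher in controls and 5 lower, Ncl and Cdh1 among the latter. At Late1c Cdh1 was also called higher in the knockout (0.35, adjusted p = 0.040).

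Of 24 activators of early transcription, factors that act on the first genes, 12 were higher and 3 lower. Housekeeping genes were higher in 4 of 12 cases, the share of all rows tested, and lower in 1. Those for p53 and damage were higher in 4 and lower in 2 of 10. The single interferon gene and the single cumulus marker tested were higher, as was 1 of 3 sperm markers. Among the housekeeping genes, the translation factor gene Eef1a1 rose from 94.6 ± 6.4 to 197 ± 9.1 FPKM. Maternal genes, RNAs stored in the oocyte, were called higher in 17 of 31 cases and lower in 5. The highest by level were Dppa3, Btg4 and Bcl2l10. Of these Btg4 was called lower (-0.18, adjusted p = 0.0084), and Dppa3 (-0.08) and Bcl2l10 (-0.14) were not called. The part of these genes in the fall of the 69 loci was not tested. The 159 loci kept at L2-cell, whose L2-cell mean is by the rule at least 0.5 of the E2-cell mean, were called lower in the knockout in 144 of 157 tested cases and higher in 2, with a median change of -1.29 over all 159. Summed cumulus and granulosa markers were between 2.25 and 2.81 FPKM in Early2c controls and between 2.81 and 3.40 in knockouts, with Inha listed at 0 in both. Summed sperm and testis markers, 13 genes, were between 42.9 and 45.1 FPKM in controls and between 39.7 and 43.7 in knockouts, with Prm1, Tnp1 and Tnp2 listed at 0 in both. Scaling by the median of ratios moved the median change of all rows from 0.11 to -0.02, and turned 4402 higher and 2056 lower rows into 3112 and 3401. Of the 69 loci, 65 were then lower and 0 higher.

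In the knockdown most of the loci were lower as well. Of the 69, 43 were called lower in KD-1cell than in Ctrl embryos and 0 higher, against 13.9% lower among all rows tested. In 38 of the 62 loci tested all 4 KD-1cell columns were below all 4 Ctrl columns (13.2% of all rows tested). The KD-1cell level was a median 50.5% of Ctrl, from 11.0% to 153%, and the median log2 change was -0.77 over the 69, against 0.12 over all rows tested. Ctrl embryos had the loci at a median of 2.88 FPKM, and KD-1cell embryos at 1.43 FPKM, against 2.85 FPKM at E2-cell and 0.120 FPKM at 20 hours. The filter was passed by 62 loci, 4 through the Ctrl columns alone, and without those 4 the count was 39 lower of 58. The 7 that did not pass were XLOC_000261, XLOC_001333, XLOC_025930, XLOC_027172, XLOC_028040, XLOC_050479 and XLOC_051436.

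XLOC_011533 had 7.41, 6.45, 7.66 and 8.76 FPKM in Ctrl and was listed at 0, 3.33, 0 and 0 in KD-1cell, a log2 change of -3.27 ± 0.60 (SE, n = 4, adjusted p = 0.0018). The size depends on the pseudocount (-4.98 with 0.1 and -2.56 with 1 FPKM). It was the largest fall among the 69 in the knockdown on this scale and as a share of Ctrl, and 3 of 4 KD-1cell columns were listed at 0.

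XLOC_035464 had 4.10, 7.33, 5.21 and 4.06 FPKM in Ctrl and 2.22, 1.95, 0.334 and 1.55 in KD-1cell, a change of -1.59 ± 0.35 (adjusted p = 0.0053). XLOC_003142 had 3.24, 3.96, 4.32 and 3.04 FPKM in Ctrl and 1.02, 1.06, 0.710 and 1.04 in KD-1cell, a change of -1.50 ± 0.15 (adjusted p = 4.2e-05). XLOC_053369 had 3.70, 5.72, 4.07 and 3.19 FPKM in Ctrl and 1.94, 1.20, 1.40 and 0.593 in KD-1cell, a change of -1.42 ± 0.25 (adjusted p = 0.0014). In all 3 the columns did not overlap between the groups.

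**Figure D4:**
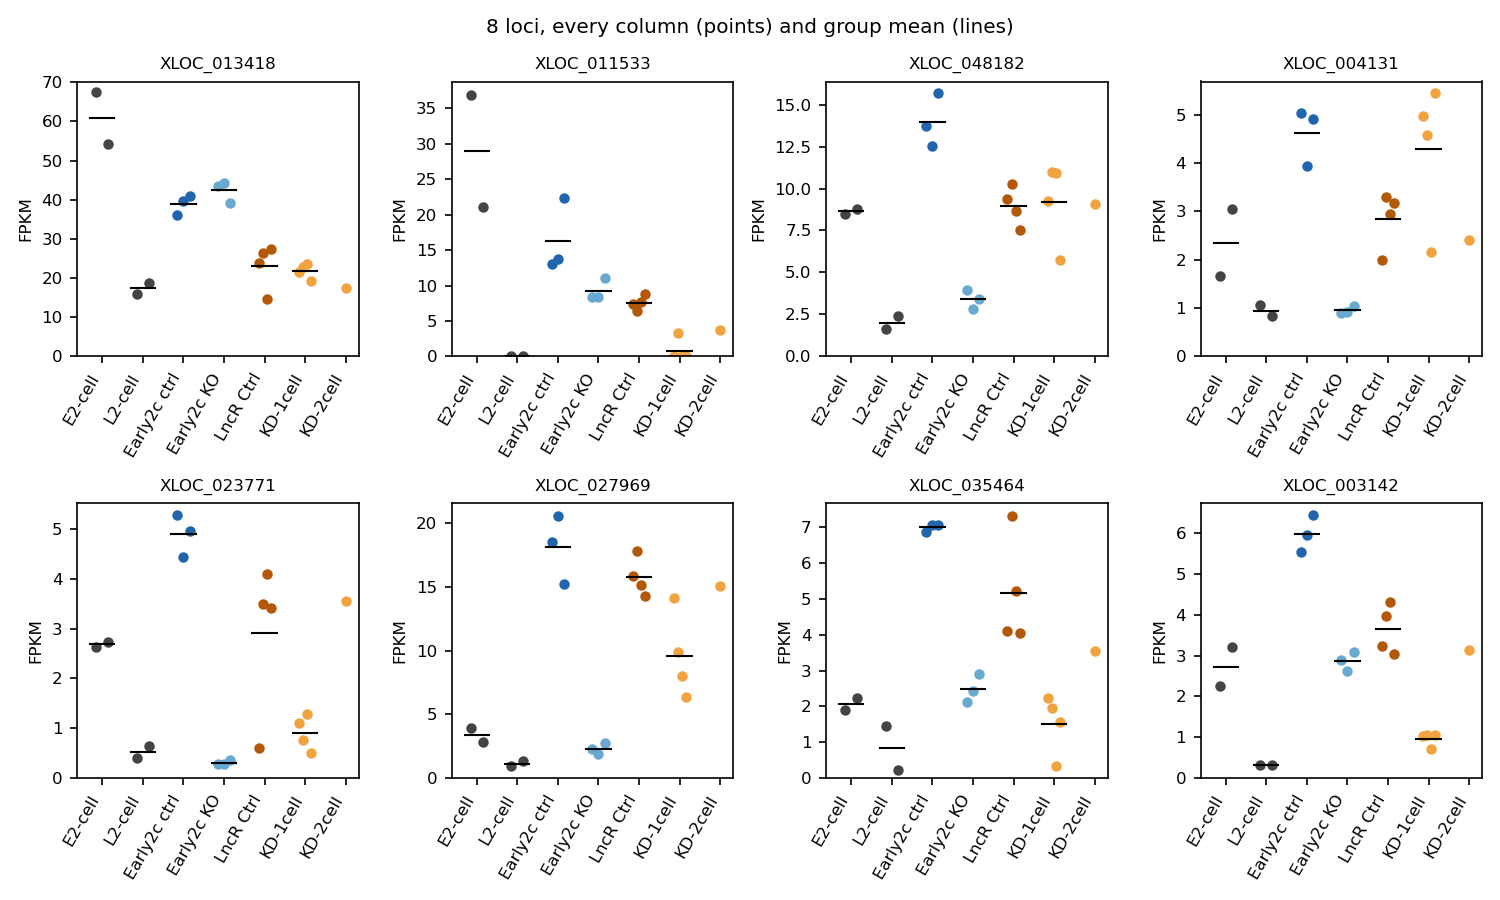
Level in FPKM of 8 loci in every E2-cell, L2-cell, Early2c control, Early2c knockout, Ctrl, KD-1cell and KD-2cell column (points), with group means as lines. XLOC_048182 and XLOC_004131 are low in the knockout and not in KD-1cell, XLOC_013418 is low in neither, and XLOC_035464 and XLOC_003142 are low in both.

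Some loci were not called in the knockdown, among them XLOC_013418, XLOC_017675 and XLOC_048182 of the 10 highest at E2-cell. XLOC_017675 changed by -0.71. It was called lower with scaling (-0.83, adjusted p = 0.028), with a replicate block and without KD-1cell replicate 1. XLOC_013418 had 23.8, 26.3, 14.7 and 27.4 FPKM in Ctrl and 21.6, 22.8, 23.7 and 19.1 in KD-1cell (-0.04 ± 0.18, adjusted p = 0.86). XLOC_048182, lower in the knockout, had 9.37, 10.3, 8.69 and 7.55 FPKM in Ctrl and 9.23, 11.0, 10.9 and 5.75 in KD-1cell (0.00 ± 0.19, adjusted p = 0.99). XLOC_004131, also lower in the knockout (-1.81 ± 0.11, adjusted p = 3.2e-07), had 1.98, 3.30, 2.95 and 3.17 FPKM in Ctrl and 4.98, 4.58, 2.15 and 5.46 in KD-1cell. Its change of 0.47 ± 0.25 did not pass (adjusted p = 0.16), and without KD-1cell replicate 3 it did, at 0.73 (adjusted p = 0.0063).

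XLOC_023771, among the largest falls in the knockout, had 0.610, 3.50, 4.10 and 3.41 FPKM in Ctrl and 1.10, 0.766, 1.28 and 0.493 in KD-1cell. The first Ctrl column overlapped the knockdown, and the change of -1.12 ± 0.42 missed the threshold (adjusted p = 0.057). Without that column it passed, at -1.60 (adjusted p = 0.00067).

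Of the 63 loci lower in the knockout 41 were also lower in the knockdown, which is 65.1% of the knockout list and 95.3% of the knockdown list. Of the 62 loci tested in both experiments 58, or 93.5%, were lower in the knockout, so the second share is close to that base share. Of all 69 loci 62.3% were lower in the knockdown, so the first share is close to its base share as well. A further 17 were lower in the knockout and not called in the knockdown, and 5 were not tested there. Lower in the knockdown and not called in the knockout were 2, XLOC_012499 and XLOC_001362. The knockdown call of XLOC_001362 was lost without Ctrl replicate 2 or 4 or KD-1cell replicate 3 or 4, at changes between -0.69 and -0.59. The experiments share no samples, and the sizes of the changes were loosely related, with r = 0.21 and rho = 0.24 over the 69 loci, given as a description. Whether the effects of the 2 treatments differ was not tested, as the experiments were run apart.

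**Figure D5:**
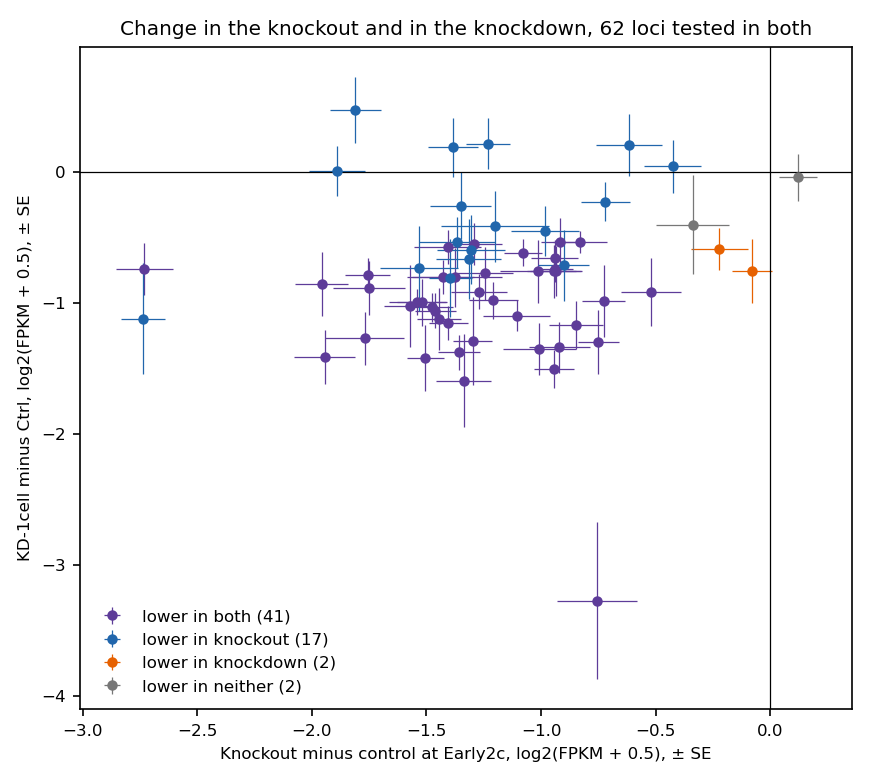
Log2 change in the MT2Mm knockout at Early2c (horizontal) against log2 change in KD-1cell (vertical), each on log2(FPKM + 0.5) with SE bars, for the 62 loci tested in both, coloured by limma's calls. Lower in both are 41, lower in the knockout alone 17, lower in the knockdown alone 2, and lower in neither 2; XLOC_011533 is the point at -3.27 on the vertical axis.

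Other gene lists are read against 29.8% of all rows tested called higher and 13.9% called lower in the knockdown. Of 8 tested later activated genes 3 were called higher in KD-1cell and 0 lower. Cdh1 was at 11.2 ± 0.69 FPKM in Ctrl and 27.9 ± 4.2 in KD-1cell, and Ncl at 49.6 ± 1.3 and 80.9 ± 9.6 (SD, n = 4). Both fell from Late1c to Early2c in the MT2Mm controls. Of 31 maternal genes 15 were higher and 2 lower. Of 42 tested 2-cell genes 3 were lower and 5 higher, with a median change of -0.25 against 0.12 over all rows tested. Among the 5 was Usp17lc, of a deubiquitinase family with near-identical copies, which rose from 48.9 ± 6.2 to 62.8 ± 7.4 FPKM. Activators of early transcription were higher in 10 of 23 cases and lower in 4, housekeeping genes in 3 and 2 of 12, and p53 and damage genes in 0 and 1 of 8. None of 1 interferon gene, 1 cumulus marker and 2 sperm markers tested was called. Summed cumulus markers were between 1.86 and 3.14 FPKM in Ctrl and between 2.13 and 3.25 in KD-1cell, and summed sperm markers between 41.3 and 43.4 and between 39.3 and 45.4. The part of these genes in the fall of the 69 was not tested. The loci kept at L2-cell were lower in 101 of 150 tested cases and higher in 2, with a median change of -0.72 over all 159. With scaling the median of all rows moved from 0.12 to 0.01, the rows called went from 3420 higher and 1598 lower to 2353 and 2327, and 48 of the 69 were lower with 0 higher.

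The single KD-2cell column, which entered no test, was closer to Ctrl than to KD-1cell by the median of the loci. Its median over the 69 loci was 2.42 FPKM, against 2.88 for the Ctrl means and 1.43 for the KD-1cell means. The column lay within the 4 Ctrl columns in 45 loci, under all of them in 19 and above all in 5, and it was above every KD-1cell column in 50. These counts were not made over all rows, so whether the likeness to Ctrl is particular to these loci was not tested. The loci kept at L2-cell had the same order, with a median of 2.63 FPKM in KD-2cell, 3.10 for the Ctrl means and 1.74 for the KD-1cell means. XLOC_003142 was at 3.14 FPKM there, within the Ctrl columns, and XLOC_011533 was at 3.78, under the lowest Ctrl column and above all KD-1cell columns.

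Over the 35 columns the rule did not use, most of the 69 loci followed 1 shared profile. The Pearson r of a locus with the mean profile of the 69 on log2(FPKM + 0.5) had a median of 0.97 and was highest in XLOC_008070. It was lowest, at -0.26, in XLOC_051436, the locus listed at 0 in every column of the knockdown and MT2Mm experiments. The columns share large differences between stages, and each locus is part of the mean it is set against, so a high r is a description of the pulse. There were 2 pairs with consecutive identifiers, XLOC_012499 with XLOC_012500 (r = 0.97) and XLOC_035464 with XLOC_035465 (r = 0.98); whether they are neighbours in the genome is not given.

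Among 15913 annotated genes with at least 1 FPKM in 3 of those columns, the 8 closest to the mean profile were Gm35974, Gm45551, Olfr787, Gm47896, Gm44416, Olfr1277, Gm49052 and Drr1, all with r of 0.98 or 0.99. Most are predicted genes named Gm, and Olfr787 and Olfr1277 are odorant receptor genes. Gm49052 had means of 9.38 FPKM at E2-cell, 1.36 at L2-cell and 0.22 at 4-cell, then 10.4 in Early2c controls and 4.97 in knockouts. Gm47896 had 13.5 FPKM in Early2c controls and 3.63 in knockouts, and 7.80 in Ctrl and 2.96 in KD-1cell. These genes were picked for their likeness over the same columns, so their falls are no separate support.

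Stricter versions of the rule were also applied. Of the 38 loci that met every threshold in both replicates, 36 were lower in the knockout and 25 in the knockdown. Of the 39 that met the rule also after scaling, 35 and 25 were lower. Of the 15 with an E2-cell mean of at least 4 FPKM, 12 and 9 were lower. Among all rows tested, 15.6% were called lower in the knockout and 13.9% in the knockdown. The counts are out of all loci of a subset, whether or not they passed the filter. Every subset lies within the loci already counted above, so these counts are no separate support.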

How the data were processed

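Per the submitters' processing notes, the authors used cutadapt 1.18, HISAT2 2.1.0, StringTie 1.3.4d, Cufflinks and Cuffdiff 2.2.1 with build GRCm38. The sources used here do not give the order of these steps, the counting strand or each sample's library kit. The deposited table holds FPKM per row in 43 columns for the 57 samples. Libraries came from 150 to 200 embryos and were read at 150 bases, per the labels' protocols. The column names of the 4-cell samples carry replicate numbers that match no sample title, so they were used as replicates without a number.

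Loci were selected from group means of the deposited FPKM. The 69 loci, the comparison set and the 9 gene lists were chosen with earlier results of these data known. Tests used limma 3.58.1 (R 4.3.3) on log2(FPKM + 0.5), 1 fit per experiment over rows that reached 1 FPKM in as many columns as the smallest group has, with Benjamini-Hochberg adjustment over all rows tested and a threshold of 0.05. The values after a change are its SE. No test was made on the stage series. The test was run on simulated data first. Fits were repeated without a filter, with pseudocounts of 0.1 and 1 FPKM, after median-of-ratios scaling, with a replicate block, on 2 groups alone, and without each replicate in turn. Figures and summaries used Python 3.11.15, pandas 2.3.3, NumPy 2.4.6, SciPy 1.17.1 and Matplotlib 3.10.9.

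Named were the 10 loci with the highest E2-cell mean, those beside each threshold, up to 4 called loci per direction and comparison whose columns did not overlap and whose higher mean reached 1 FPKM, the 3 highest at Blastocyst, up to 3 genes per list by level, and the 8 annotated genes most like the mean profile. XLOC_000261, XLOC_001362, XLOC_030150, XLOC_010287, XLOC_008070, XLOC_035465 and XLOC_001333 fall outside this rule, as do the loci named for not passing the filter, and were chosen after their values were seen. Whether loci share reads with near-identical copies or overlapping genes is not known, so each level is uncertain to that extent.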

Additional observations from a re-analysis of the deposited data

Results flagged for a closer look

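Over 27 named loci and 54 groups of 4 columns, 4 single columns stood apart from the other 3 of their group by Dixon's criterion, where chance gives about 1 in 20. They were the KD-1cell column with 3.33 FPKM of XLOC_011533 (the other 3 were listed at 0), the KD-1cell column with 0.710 FPKM of XLOC_003142, the Ctrl column with 7.84 FPKM of XLOC_012500, and the Ctrl column with 2.37 FPKM of XLOC_000261 (the other 3 were listed at 0).

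Limma's interaction test of MT2Mm knockout and stage called 61 of the 69 loci lower, where 11.6% of all rows tested were. The 4 with the largest difference are given. The difference on the log2(FPKM + 0.5) scale was -2.71 for XLOC_023771, -2.68 for XLOC_027969, -1.99 for XLOC_016233 and -1.88 for XLOC_009704. All 4 were near 0 at Late1c in both genotypes, so the pseudocount limits the size an effect could take there. The test therefore largely restates the Early2c change, and no difference between the stages is read from it. XLOC_023771 and XLOC_009704 passed the filter through the control columns alone, so a fall was the direction they could show.

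The KD-2cell column, which entered no test, was above the highest Ctrl column in 3 named loci, at 4.59 FPKM in XLOC_012499, 3.03 in XLOC_044812 and 2.58 in XLOC_000261. It is a single column, so the difference was not tested.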

How the results depend on the processing

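The direction of the counts held in all alternatives run, with 0 reversals. Alternatives other than leaving out a replicate gave 31 to 48 loci called in the knockdown, 56 to 65 in the knockout at Early2c, 46 to 63 for the interaction, 68 for the control step and 67 to 68 for the knockout step. Leaving out 1 replicate gave 37 to 43, 62 to 65, 58 to 61, 68, and 67 to 68. Without a filter the hours gave 1 locus from 14 to 17, 18 from 17 to 20 and 35 from 14 to 20 hours, where the filtered test gave 0. At Late1c a pseudocount of 0.1 FPKM gave 1 locus, lower. The rule itself found 38 loci when both replicates had to meet it, 40 after scaling, 141 with an E2-cell limit of 1 FPKM and 15 with 4. Leaving out a replicate gave between 61 and 87 loci, the highest without E2-cell replicate 1. Of 153 values of single loci, 20 changed side of the threshold under at least 1 alternative.

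Samples with one replicate number did not deviate together: their deviations correlated from -0.0716 to 0.0343 in the hours, 0.0198 to 0.0761 in the knockdown and -0.138 to 0.153 in the MT2Mm experiment. With a replicate block the knockdown gave 44 loci called, the knockout 63, the interaction 61, and Late1c 0. Depth is unknown, so levels under 1 FPKM carry an error that could not be set.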
